A study of Mus musculus with 12 samples.

Results

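Genes whose whole span on the chromosome is shorter than 10000 bases were examined here for peaks of 5-methylcytosine (m5C) in hippocampal RNA. A peak was counted when it overlapped exactly 1 protein-coding gene span on that gene's strand and the span was under this limit. The rule gave 6653 peaks of the 72319 in all 6 peak lists (9.20%), in 1704 host genes. Of the 21900 annotated protein-coding spans, 7938 (36.2%) were this short, and 21.5% of these carried a peak in at least 1 list, against 54.2% of the longer spans. The study set young against aged tissue. Every mouse was a female wild-type (WT) C57BL/6 animal, untreated as far as the labels say, with an age of 3 months in the young group and 18 months in the aged group. RNA of the whole hippocampus was fragmented, pulled down with an m5C antibody (IP) and sequenced as directional libraries beside input RNA, 3 IP and 3 input libraries per age, and each of the 6 lists belongs to 1 IP library and its input. Nothing in the labels states that the 3 samples within an age are different animals. The p-values therefore reflect variation among these samples only, and this may be technical. Read depth is unknown, and an IP peak depends on how abundant a transcript is as well as on its modification. In whole tissue, fewer cells of a type and less RNA per cell cannot be told apart.

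5-Methylcytosine is made in RNA by methyltransferases of the NSUN family and by DNMT2, and proteins such as ALYREF and YBX1 bind RNA that carries it. Short genes are a mixed class. They include the housekeeping genes of the ribosome and the respiratory chain, genes without introns such as many transcription factors and receptors for neurotransmitters, and large families that are used outside the brain, such as odorant receptors and testis histones. Because such genes have few or short introns, a peak on the mature transcript can take up a large share of the gene span, and that covered share is the main quantity described below.

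The sequences around the start are shown for 12 short genes, picked among the named genes whose peaks shared bases near the start. They do not stand for short genes in general, since 14.9% of short-gene peaks reached the gene start. Each run of 100 bases is the genome sequence on the gene's strand (RefSeq, assembly GRCm38.p6, which is mm10), 5′ to 3′, with 50 bases before and 50 after the annotated start. Capitals mark the bases covered by a peak in every list that had a peak in the gene. The first 7 genes had a peak over this window in all 6 lists, and they include genes that were covered from end to end and genes with a peak at the start only. Cox5b is at chr1:36691437-36691536 (+), Fau at chr19:6057897-6057996 (+), Htr1a at chr13:105443643-105443742 (+), Sox2 at chr3:34649945-34650044 (+), Nap1l5 at chr6:58907077-58907176 (-), Pnmal2 at chr7:16944632-16944731 (+) and Utp3 at chr5:88554412-88554511 (+).
Cox5b: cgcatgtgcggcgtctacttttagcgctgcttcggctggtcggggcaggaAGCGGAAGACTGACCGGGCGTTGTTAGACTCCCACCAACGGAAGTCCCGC
Fau: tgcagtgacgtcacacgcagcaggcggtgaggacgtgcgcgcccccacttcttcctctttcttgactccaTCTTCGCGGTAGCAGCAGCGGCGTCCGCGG
Htr1a: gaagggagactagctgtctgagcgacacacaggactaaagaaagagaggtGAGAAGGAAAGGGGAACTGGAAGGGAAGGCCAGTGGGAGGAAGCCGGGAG
Sox2: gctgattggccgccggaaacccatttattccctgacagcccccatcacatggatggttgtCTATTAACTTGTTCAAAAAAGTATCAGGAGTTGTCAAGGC
Nap1l5: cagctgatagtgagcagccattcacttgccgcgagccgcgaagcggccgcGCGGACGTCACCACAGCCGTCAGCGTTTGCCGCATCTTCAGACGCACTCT
Pnmal2: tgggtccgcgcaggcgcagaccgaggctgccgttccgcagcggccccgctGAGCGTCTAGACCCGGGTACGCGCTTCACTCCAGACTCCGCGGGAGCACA
Utp3: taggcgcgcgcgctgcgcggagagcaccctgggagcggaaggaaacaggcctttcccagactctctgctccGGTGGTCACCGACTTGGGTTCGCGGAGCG

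In Cox5b, Htr1a, Nap1l5 and Pnmal2 the capitals begin at the annotated start itself and run over all 50 bases that follow it. In Fau, Sox2 and Utp3 the shared cover began a little downstream and held 30, 40 and 29 bases of the window. The next 2 genes had peaks in the aged lists alone and the last 3 in the young lists alone. Eid2 is at chr7:28267831-28267930 (+), Inafm2 at chr2:118745708-118745807 (+), H2al1b at chrX:11302382-11302481 (+), Ifnk at chr4:35152005-35152104 (+) and Il17a at chr1:20730855-20730954 (+).
Eid2: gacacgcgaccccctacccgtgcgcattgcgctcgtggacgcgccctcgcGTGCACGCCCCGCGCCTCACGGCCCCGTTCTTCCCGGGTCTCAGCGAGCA
Inafm2: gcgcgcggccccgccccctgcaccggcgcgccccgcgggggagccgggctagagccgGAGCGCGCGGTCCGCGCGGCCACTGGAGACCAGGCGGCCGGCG
H2al1b: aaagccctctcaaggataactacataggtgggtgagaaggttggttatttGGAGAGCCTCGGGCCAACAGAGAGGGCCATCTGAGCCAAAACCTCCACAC
Ifnk: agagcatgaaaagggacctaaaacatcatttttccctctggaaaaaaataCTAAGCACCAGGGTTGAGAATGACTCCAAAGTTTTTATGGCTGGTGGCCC
Il17a: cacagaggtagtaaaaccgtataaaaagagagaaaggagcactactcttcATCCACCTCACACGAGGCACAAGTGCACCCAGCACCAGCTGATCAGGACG

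Of the first 50 transcribed bases, 74% were G or C in Eid2 and 82% in Inafm2, against 62% in H2al1b, 50% in Ifnk and 60% in Il17a. A start sequence at the annotated end of the span was at hand for 5292 short genes, and their median G+C content over these 50 bases was 54%. The median was 62% in the 41 genes with a peak over the start window in all 6 lists, and also 62% in the 125 genes that had a peak in all 6 lists but none over that window. It was 52% in the 4233 genes without a peak. These medians describe the genes and were not tested, and transcript abundance, which the lists do not give, was not compared between these classes.

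Every aged list had more peaks in short genes than every young list. The young lists held 926, 885 and 1029 such peaks and the aged lists 1312, 1240 and 1261, or 947 ± 74.2 against 1271 ± 37.0 (mean ± SD, n = 3 each), the aged mean being 1.34 times the young one (two-sided exact permutation p = 0.1). The number of short host genes was 787, 754 and 842 in the young lists and 1035, 1000 and 1008 in the aged ones, or 794 ± 44.5 against 1014 ± 18.3 (n = 3 each, exact permutation p = 0.1). With 3 lists against 3, no exact permutation test can give less than 0.1, so none of the comparisons between ages, 11 in this family plus those of length classes and gene families, could pass 0.05. The order of the ages turned once the lists were made equally long by keeping the 8549 best-scored peaks of each, as many as the shortest list holds. The shortest, young list 2, was thus left whole, and young lists 1 and 3 were cut from 9887 and 10392 peaks. The aged lists were cut from 15189, 14008 and 14294, so they lost more of their low-scored peaks. After this step the aged lists had fewer peaks in short genes (a difference of -92.7) and fewer short host genes (-90.0).

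Peaks in short genes made up a smaller share of the aged lists than of the young ones. They were 9.68%, 10.7% and 10.2% of the assigned peaks in the young lists and 8.86%, 9.09% and 9.07% in the aged lists, a difference of -1.22 percentage points without overlap (n = 3 each, exact permutation p = 0.1). In longer genes the peaks increased from 8336 ± 877 to 12849 ± 580 (n = 3 each), a ratio of 1.54. Host genes did not show this gap, with ratios of 1.28 for short and 1.25 for longer genes, and short genes were 15.3% to 15.9% of all host genes in the young lists and 15.7% to 16.3% in the aged ones (n = 3 each, exact permutation p = 0.3). The number of peaks per host gene separates these quantities. It went from 1.19 ± 0.0271 to 1.25 ± 0.0139 in short genes and from 1.95 to 2.41 in longer ones (n = 3 each). The difference of 0.0621 in short genes was 0.0226 with lists of equal length (n = 3 each, exact permutation p = 0.3).

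**Figure D1:**
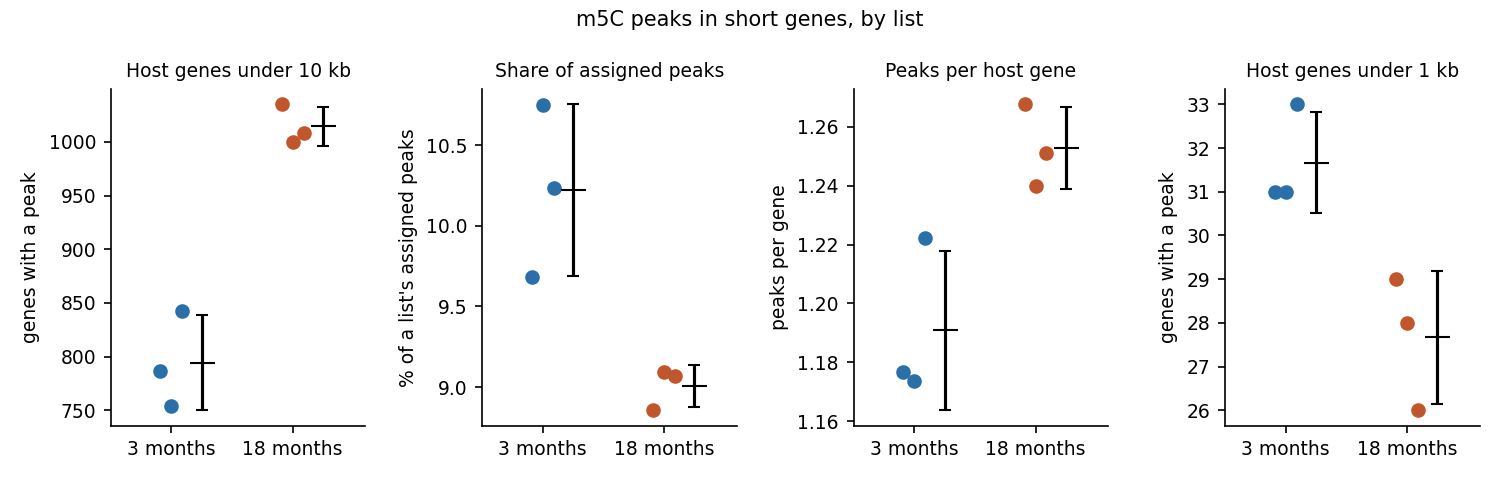
Short host genes, percent of a list's assigned peaks that lie in short genes, peaks per short host gene, and host genes with spans under 1000 bases, 1 point per list at 3 and 18 months, with the mean and SD of 3 lists beside the points; the axes do not start at 0. Host genes range from 754 to 842 in the young and from 1000 to 1035 in the aged lists, while the share of peaks and the host genes under 1000 bases are lower in every aged list.

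Short and longer genes differed within each list in how peaks lay on them. The median peak in a short gene was 508 ± 31.9 bases wide (mean ± SD over 6 lists) and in a longer gene 206 ± 4.10, with the short genes wider in 6 of 6 lists. The median host gene was covered over 13.2% of its span when short and over 1.27% when longer, again in 6 of 6 lists. Since the span that defines the class is the denominator of that share, this gap follows largely from the rule. Peaks with their midpoint in the first 20% of the span were 22.0% of those in short genes and 15.0% of those in longer ones, and those in the last 20% were 31.7% and 36.9%. For width, for the first 20%, for the last 20% and for peaks per gene the exact sign-flip permutation test over 6 lists gave p = 0.03125, the smallest it can give, or 0.0375 after Benjamini-Hochberg adjustment over 6 measures. Relative position is scaled by the same span that defines the class. Peaks per host gene and list rose across span classes, from 1 under 1 kb to 3.09 at 200 kb and over. Median peak width also differed across span classes. It was 549 bases under 1 kb, 646 at 1 to 2 kb, 440.5 at 5 to 10 kb, 301.5 at 10 to 20 kb and 195 at 200 kb and over. For width, position and peaks per gene the p-values therefore show that the lists agree, and no difference apart from gene length. The covered share is among the 6 and was tested as well, but its p-value is not given, since the rule largely fixed the outcome. The remaining measure, the authors' peak score, had a median of 137 in short and 134 in longer genes and did not pass (exact sign-flip p = 0.1875, higher in 4 of 6 lists).

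Position along the gene did not separate the ages. The median relative position of a peak, measured from the gene start, was 60.8%, 58.5% and 60.2% in the young lists and 59.5%, 58.1% and 60.5% in the aged ones (n = 3 each, exact permutation p = 0.6). The covered share also overlapped between ages, with list medians of 13.9%, 12.5% and 12.7% against 13.8%, 12.4% and 14.0% (n = 3 each, exact permutation p = 0.9). A peak reached the gene start in 14.9% and the gene end in 22.0% of cases, against 3.35% and 3.89% in longer genes. In 10.4% of cases the peak ran past the annotated span. Along short genes, cover was 19.8% of host genes (young) and 21.005% (aged) in the first 5% of the span, and the mean of each age was lowest at 12.5% of the span and highest near the end. At 12.5% of the span it was 14.6% ± 0.436 in the young and 12.8% ± 0.105 in the aged lists (n = 3 each), without overlap. That position was chosen after the values were seen, and the difference was not tested.

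**Figure D2:**
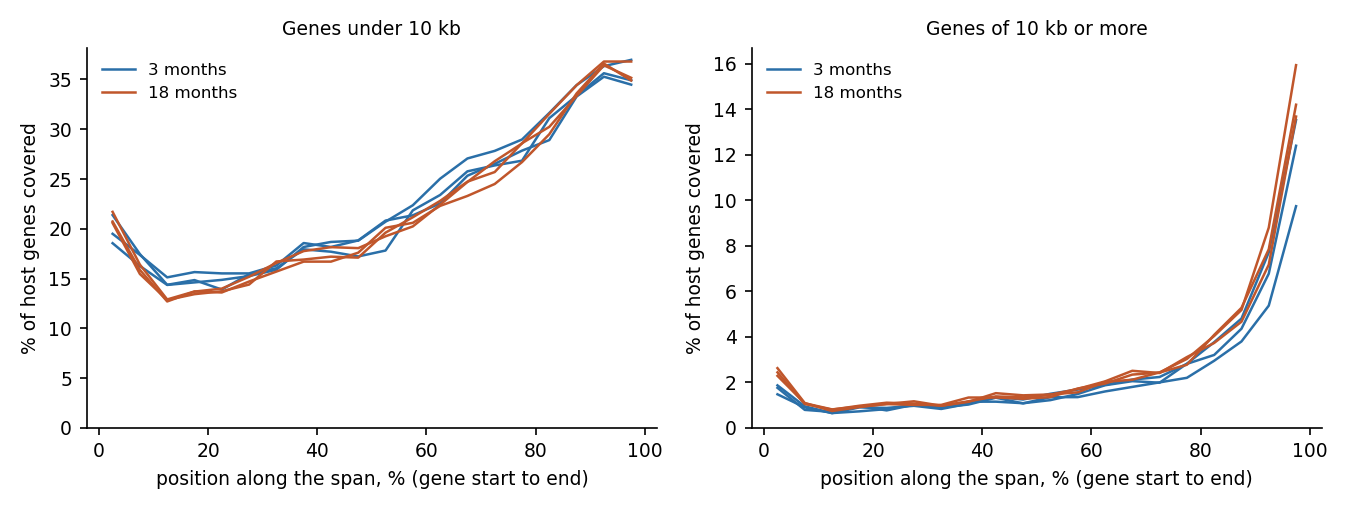
Share of host genes covered by a peak at 20 positions from gene start to gene end, 1 line per list, for short genes and for longer genes on separate axes. In short genes the lines of both ages are lowest between 12.5% and 22.5% of the span and reach 34.5% to 37.0% of host genes in the last 5%, and in longer genes they stay low until the end. The vertical scales of the panels differ.

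Within the short class, the age gap changed with span. Among spans of 5000 to 10000 bases, 14.8% ± 1.08 of the annotated genes had a peak in a young list and 19.9% ± 0.350 in an aged one, a ratio of 1.34 (n = 3 each, exact permutation p = 0.1). For 2000 to 5000 bases the shares were 10.9% and 13.9%, and for 1000 to 2000 bases they were 6.55% and 6.98%, where the lists of both ages overlapped (n = 3 each, exact permutation p = 0.6). Under 1000 bases the order turned. There were 31, 31 and 33 host genes in the young lists and 29, 28 and 26 in the aged ones, without overlap (n = 3 each, exact permutation p = 0.1). At equal list length the same counts were 24, 31 and 23 against 12, 12 and 9. The difference in ratio between these classes was not tested.

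**Figure D3:**
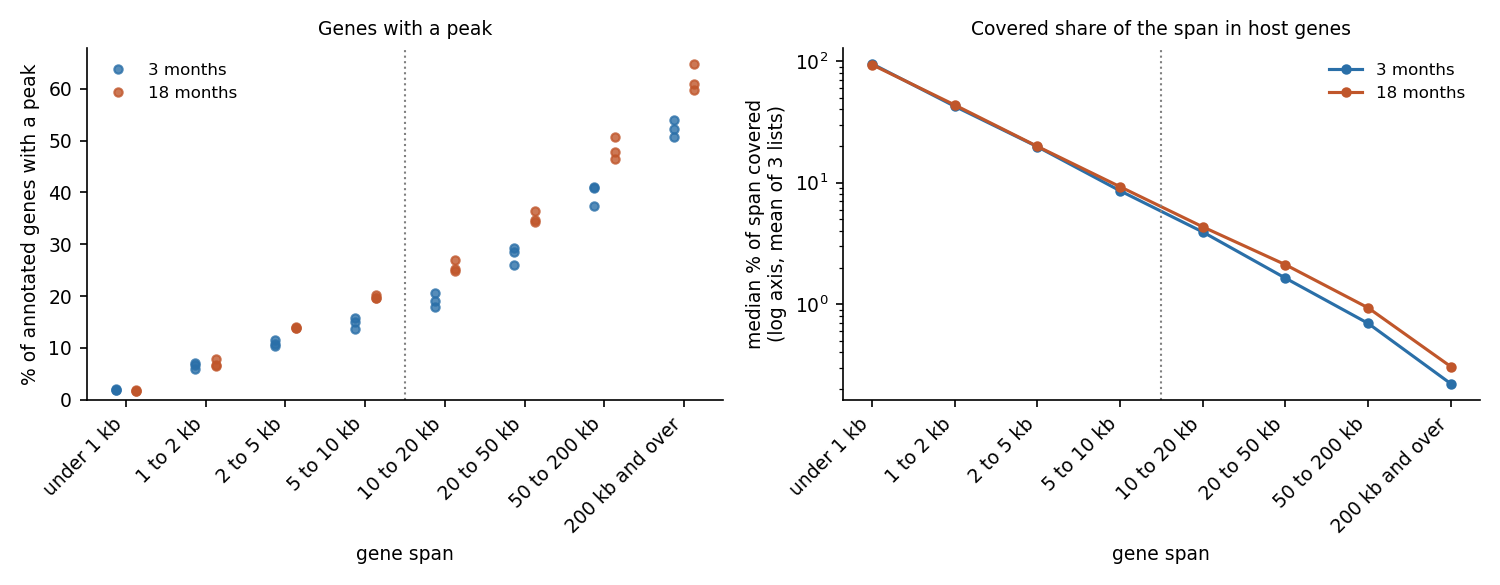
Left, percent of annotated genes with a peak by class of gene span, 1 point per list; right, median percent of the span covered in host genes (log axis, mean of 3 lists). The dotted line marks the limit of 10000 bases. The share of genes with a peak is lowest under 1000 bases, at 2.00% (young) and 1.75% (aged), where the median covered share is highest, at 95.1% and 93.5%.

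The 70 host genes under 1000 bases included 21 olfactory receptors, 7 vomeronasal receptors and 8 H2al1 histone variants. These families have similar copies among which the authors' alignment could split reads, so the gene that such a peak belongs to is uncertain. The families below were chosen after their values were seen. Olfactory receptors, the odorant detectors of the nose, had 31 host genes of 1088 short members. The young lists had 11, 18 and 10 of them and the aged lists 12, 7 and 10, so the ages overlapped. With lists of equal length the counts were 7, 18 and 3 against 2, 1 and 2, without overlap. Young list 2, with 18, is not cut by this step, and the aged lists are cut most. The H2al1 genes, X-linked histone H2A variants of the testis, had 8 host genes of 14, with 6, 4 and 6 in the young and 3, 4 and 4 in the aged lists. The Btbd35f genes, an X-linked family that encodes proteins with a BTB domain, had 13 host genes of 29. Of these 10 were in all 6 lists, with a median covered share of 88.6%. Reads could be split among members of this family as well, so the gene that such a peak belongs to is likewise uncertain. The 6 Pramel host genes of 34 had 4, 5 and 4 in the young and 3, 4 and 4 in the aged lists.

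Short host genes were shared less widely than longer ones. A peak was present in all 6 lists in 367 short host genes (21.5%), where 31.8% of host genes of any length and 34.1% of the longer ones were in all 6. In contrast, 506 short host genes (29.7%) were in 1 list only, against 20.96% of the longer ones. More aged than young lists held the gene in 796 cases (46.7%), more young than aged lists in 385 (22.6%), and equal numbers in 523. With lists of equal length 333 of 1251 short host genes had more aged lists (26.6%) and 517 more young lists (41.3%). The counts for the gene lists below are to be read against these shares, and none of them was tested. These shares describe the lists and were not tested against each other.

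**Figure D4:**
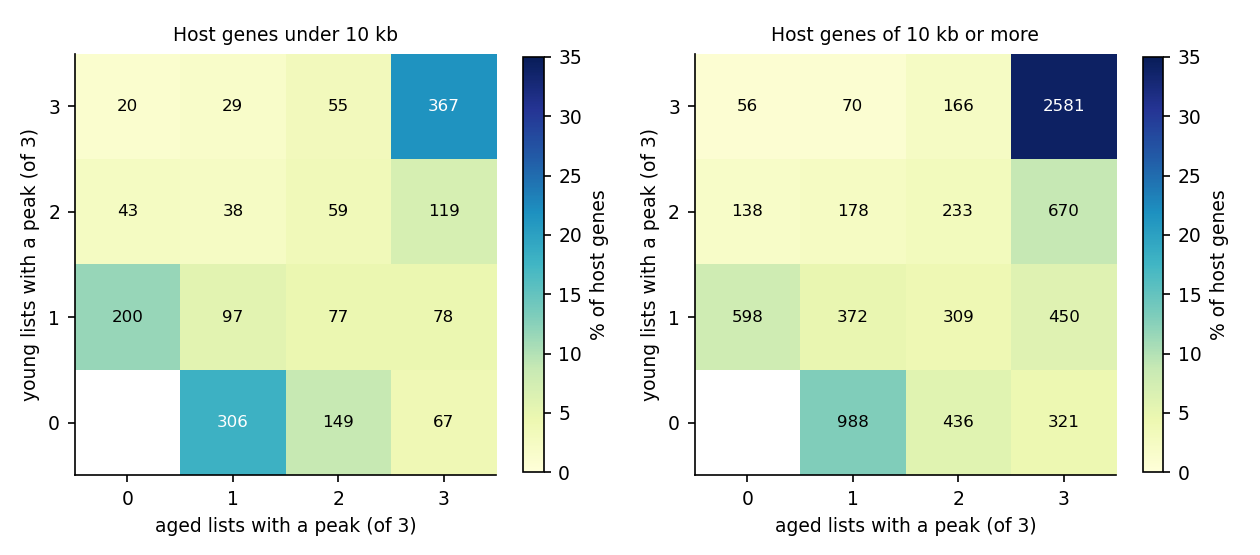
Percent of host genes for each combination of young lists (vertical axis, 0 to 3) and aged lists (horizontal axis, 0 to 3) with a peak, for short and for longer genes. The corner with all 6 lists holds 21.5% of short and 34.1% of longer host genes.

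A group of short genes was covered almost from end to end in every list. At least 95% of the span was under peaks in all 6 lists in 6 genes, which were Pnmal2, Nap1l5, Cenpb, Utp3, H2al1f and the predicted gene Gm13271 (the last was chosen after its values were seen). Pnmal2, of the paraneoplastic Ma antigen family (chromosome 7, 16944682 to 16948828), was covered over 100% of its 4147 bases in each list by 1 peak. Nap1l5, an imprinted retrogene related to nucleosome assembly proteins (chromosome 6, 58905233 to 58907126), was covered over 100%, 99.4% and 100% in the young and 100% in each aged list. Cenpb, which encodes a DNA-binding protein of the centromere, was covered over 98.0% in each list.

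Utp3, a factor of ribosomal RNA processing, was covered over 95.6%, 98.3% and 98.3% in the young and 98.3% in each aged list. H2al1f, with a span of 318 bases, was covered over 100% in each list. In these genes the peak marks the whole gene and gives no position within it. The other genes with the highest mean covered share were Btbd35f10, Btbd35f15, Btbd35f16, Btbd35f19, Btbd35f20, the pseudogene Hnrnpa1l2-ps2 and the olfactory receptor Olfr462. For H2al1f, the Btbd35f genes and Olfr462 the gene that a peak belongs to is uncertain, as for their families above. Whether Gm13271 has similar copies was not examined. Olfr462 had 97.4%, 94.8% and 94.8% in the young and 91.1%, 100% and 91.1% in the aged lists, with overlap between ages. Per list, 29 to 34 short host genes were covered over at least 95%, with 31, 31 and 34 in the young and 29, 32 and 30 in the aged lists.

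Developmental transcription factors had high covered shares. Of 46 short members of that list 26 had a peak and 12 were in all 6 lists, and in these 12 the median covered share was 40.6%, against 15.2% over all 367 short genes in all 6 lists. Sox2, a factor of neural stem cells, was covered over 79.3%, 87.5% and 73.1% in the young and 73.0%, 87.4% and 92.4% in the aged lists, so the ages overlapped. Bhlhe22, a basic helix-loop-helix factor of cortical neurons, had 80.5%, 80.5% and 72.4% in the young and 79.6%, 79.6% and 100% in the aged lists.

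Neurod2 and Neurod6, factors of excitatory neurons, were in all 6 lists as well. Neurod2 had 69.2% in 5 lists and 74.2% in aged list 1. Neurod6 had 60.9%, 53.8% and 62.5% in the young and 61.3%, 56.9% and 62.5% in the aged lists, with overlap. Of the 26 host genes in the list, 13 had more aged lists, 1 had more young lists and 12 had the same number, and 13 of 26 with more aged lists is near the 46.7% of all short host genes. When the lists were equally long, 5 had more aged and 3 more young lists. Hes1, a transcriptional repressor downstream of Notch, was aged-only, a term used here for a gene with peaks in all 3 aged lists and in no young list. It was covered over 14.0%, 11.5% and 14.0% in the aged lists, and had no peak in any list when the lists were equally long.

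Markers of cell types were checked in the short class. The 3 short markers of excitatory hippocampal neurons, Neurod1, Neurod2 and Neurod6, had peaks in all 6 lists. Inhibitory neuron markers had 1, 1 and 2 of 5 short members with a peak in the young and 4, 2 and 2 in the aged lists, and astrocyte markers 2, 1 and 3 of 4 against 3, 3 and 3. Microglia markers had 0 of 6 in each young list and 0, 1 and 1 in the aged ones, oligodendrocyte markers 1, 0 and 0 of 2 against 1, 1 and 0, and endothelial markers 0 of 2 in every list. No choroid plexus marker of the list had a short span. Gfap, the astrocyte intermediate filament, was covered over 19.5%, 0.973% and 5.42% in the young and 7.10%, 7.07% and 7.66% in the aged lists, with overlap. The part of cell composition in the differences between ages was not tested.

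The genes of the cytosolic ribosome formed a large group of short hosts. Of 78 short ribosomal protein genes 48 had a peak in some list, with 30, 29 and 34 in the young and 34, 36 and 39 in the aged lists, so the highest young list equalled the lowest aged one. A peak was in all 6 lists in 20 of them, with a median covered share of 14.1%. More aged lists held the gene in 17 cases, more young lists in 6, and equal numbers in 25. At equal list length 6 had more aged and 10 more young lists. In the full lists the mean difference was 0.333 more aged lists per gene, close to the 0.387 over all short host genes, and the median was 0 in both.

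Rps24, a protein of the small ribosomal subunit, had 21 peaks over the 6 lists. It was covered over 40.5%, 30.8% and 25.2% in the young and 41.1%, 39.6% and 40.7% in the aged lists, with an overlap of young list 1 and aged list 2. Rpl14, of the large subunit, had 19.6%, 18.7% and 24.1% in the young and 23.2%, 18.8% and 24.1% in the aged lists. Fau, which encodes a ubiquitin-like protein fused to a ribosomal protein, had 22.8% in each young list and 33.9%, 22.8% and 33.9% in the aged lists. In Fau the peak near the start, shown above, was joined by another in aged lists 1 and 3. Rpl6 and Rpl15, of the large subunit, were aged-only. Rpl6 was covered over 9.70%, 9.09% and 9.30% and Rpl15 over 38.0%, 11.0% and 5.18% in the aged lists, and each was left in 2 aged lists when the lists were equally long. Rpl6 had a region shared by all 3 aged lists, while the region recorded for Rpl15 was in 1 aged list.

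Genes of oxidative phosphorylation gave 36 host genes of 54 short members, with 15, 18 and 21 in the young lists and 23, 25 and 23 in the aged ones, without overlap. More aged lists held the gene in 16 cases, more young lists in 6 and equal numbers in 14, a mean difference of 0.472 lists, against 0.387 over all short host genes. The 44.4% with more aged lists is near the 46.7% of all short hosts. With lists of equal length the counts per list overlapped, at 14, 18 and 19 against 11, 20 and 15. The 9 genes in all 6 lists had a median covered share of 7.92%. Cox5b, a subunit of cytochrome c oxidase, was covered over 10.7% in each of the 6 lists by the same peak at its start (chromosome 1, 36691487 to 36691689). Ndufs5, an accessory subunit of complex I, was covered over 12.4% in each list by 2 peaks. Cycs, cytochrome c, had 41.8%, 46.0% and 36.0% in the young and 30.5%, 36.4% and 42.8% in the aged lists.

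Subunits of complex I (NADH dehydrogenase) contributed both aged-only genes of this list. Ndufb10 was covered over 10.03% in each aged list by a peak that also reached upstream of the annotated start (chromosome 17, 24724187 to 24724478). Ndufb3 had 4.54%, 1.67% and 2.86% in the aged lists. Both lost the call with lists of equal length, with peaks in 2 aged lists for Ndufb10 and in 1 for Ndufb3. By name, 19 of 32 short Nduf genes were hosts, with 6, 7 and 10 in the young and 12, 15 and 12 in the aged lists (n = 3 each, exact permutation p = 0.1). At equal list length the counts overlapped, with 6, 7 and 8 against 7, 11 and 6.

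Cover was identical in all 6 lists in 4 of the 9 cytoskeletal genes and 3 of the 6 chaperone and stress genes that had a peak in every list, against 61 of all 367 short genes in all 6. The same held for 3 of 9 genes of oxidative phosphorylation, 3 of 20 ribosomal protein genes and 0 of 12 developmental transcription factors. These counts are small and were not tested. Of 24 short tubulin, actin and ubiquitin genes, with neurofilaments, 18 were hosts and 9 were in all 6 lists, 8 had more aged (44.4%) and 0 had more young lists. At equal length these were 6 and 0. Tuba1a and Tuba1b, alpha-tubulins with similar sequences, were covered over 32.0% and 38.3% in each of the 6 lists. Nefm, a neurofilament subunit, had 33.7% in each young list and 56.9%, 56.9% and 33.7% in the aged ones. Actc1, a cardiac actin, had the most peaks of the short genes that are not predicted, with 2, 4 and 5 in the young and 5, 5 and 4 in the aged lists. Chaperone and stress genes gave 21 hosts of 27, of which 12 had more aged lists (57.1%) and 1 had more young lists, or 10 and 1 at equal length. Hsp90aa1, a cytosolic chaperone, was covered over 11.5%, Atf4, a factor of the stress response, over 38.6% and Ddit3, its target, over 10.3% in each of the 6 lists.

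Other lists of neuronal and RNA-related genes were smaller. Synaptic vesicle and secretory genes gave 13 hosts of 19, with 6, 3 and 5 in the young and 9 in each aged list, and 9 had more aged (69.2%) and 0 more young lists. At equal length the counts per list were 5, 3 and 5 against 6, 6 and 5, with 6 genes in more aged and 1 in more young lists. Immediate early and activity genes gave 12 hosts of 34, with 3, 4 and 5 against 8, 6 and 8, and 9 of the 12 had more aged lists, or 5 of 8 at equal length. Id2, a regulator of cell differentiation, was the only gene of this list in all 6 lists, with 32.5% covered in young list 1 and 33.9% in the others. Potassium channels and receptors gave 17 hosts of 35, with 7, 9 and 9 in the young and 15, 11 and 10 in the aged lists, which overlapped at equal length (4, 9 and 8 against 9, 7 and 7). Htr1a, a serotonin receptor of hippocampal neurons, was covered over 9.16%, 14.1% and 15.5% in the young and 8.35%, 15.2% and 15.2% in the aged lists by a peak that began at the start shown above.

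Neuropeptide and granin genes gave 9 hosts of 23, of which 4 had more aged (44.4%) and 0 more young lists, or 3 and 1 at equal length. Vgf, a secreted neuropeptide precursor induced by neuronal activity, had 29.6% in each young list and 28.8%, 29.6% and 29.6% in the aged ones. Scg2, a granin, had 40.9%, 39.2% and 39.6% in the young and 36.5%, 39.9% and 36.8% in the aged lists. Splicing and hnRNP factors gave 15 hosts of 18, with 9 that had more aged (60.0%) and 3 that had more young lists, or 7 and 3 at equal length. Ddx5, an RNA helicase, was covered over 21.5% in each of the 6 lists. Translation factors gave 11 hosts of 14, with 6 that had more aged and 2 more young lists (4 and 4 at equal length), and the proteasome list 10 of 19, with 4 and 1 (4 and 1 at equal length). Glycolysis gave 3 of 6.

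Other lists are given as counts. None of the 22 clustered beta protocadherins, adhesion proteins of neurons, had a peak. Of 21 short core and linker histone genes 7 were hosts, and H2bc4 was the only 1 of them in all 6 lists, with 3.68% covered. Of the m5C writers, erasers and readers, 4 of 20 have short spans and 1 had a peak. It was the reader Alyref, in 2 aged lists and in no young list (chosen after its values were seen).

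Aged-only short genes numbered 67 of 1704 (3.93%), while 4.19% of host genes of any length were aged-only. Young-only short genes, with peaks in all 3 young lists and in no aged list, numbered 20 (1.17%), against 0.82% of all host genes. Both shares are near those of all host genes and were not tested against them. With lists of equal length 23 genes were aged-only and 49 young-only, of which 13 and 11 were also called with the full lists, so the larger number moved from the aged to the young lists. Leaving out 1 list relaxes the rule to 2 lists of an age, and the counts then ran from 80 to 121 aged-only and from 27 to 37 young-only genes. Aged-only genes had a median span of 6959 bases, a median covered share of 10.03% over the lists with a peak, and 57 of them had 1 region shared by the lists. Of the named ones, Tcp1, Mlf2 and Ndufb3 had their region in 2 aged lists and Rpl15 in 1, so their peaks were not all at the same place. In young-only genes the median span was 2772 bases and the covered share 27.6%. Predicted genes were 9 of the 20 young-only and 2 of the 67 aged-only genes, against 128 of all 1704 short hosts.

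Among aged-only genes, Eif5a, the translation factor that carries hypusine, had the highest mean of best peak scores, with 66.3, 2834 and 3100 in the aged lists and a covered share of 15.6%, 12.01% and 16.3%. Scores are the authors' values and describe peaks within a list, and their means over lists served only to choose and describe genes. Eid2, an inhibitor of the acetyltransferase EP300 (chromosome 7, 28267881 to 28269168), was covered over 100% in each aged list by a peak with scores of 89.4, 181 and 304. Inafm2, a small membrane protein gene, was covered over 99.8%, 87.6% and 100% in the aged lists. Both had no peak in any young list, and their start sequences are those shown above. Of the 20 named aged-only genes 6 kept the call with lists of equal length, namely Slitrk5, Trappc4, Zfp3, Srsf6, Rhov and Dnajb2. Eif5a, Eid2, Inafm2, Tcp1, Crebzf, Mlf2, Eif4a2 and Psmb6 were then in 2 aged lists, and Ube2a in 1.

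Slitrk5, a synaptic adhesion protein of neurons, was covered over 18.0%, 42.2% and 52.3% in the aged lists. Trappc4, a subunit of a complex that tethers transport vesicles, had 11.1%, 11.1% and 6.40%. Tcp1, a subunit of the cytosolic chaperonin, had 9.53%, 11.0% and 8.69%. These values differed between the aged lists, so the peaks did not have the same ends in each. Zfp3, a zinc finger gene, was covered over 20.3% in each aged list. Srsf6, a splicing factor of the SR family, had 19.3%, 13.8% and 38.5%. Crebzf, a bZIP transcription factor, had 31.6%, 31.6% and 24.3%.

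The remaining aged-only genes named by rule were Rhov, Mlf2, Dnajb2, Eif4a2, Psmb6 and Ube2a. Mlf2 was covered over 39.0%, 4.18% and 39.0%, so aged list 2 was lower than the others. Dnajb2, a chaperone of neurons, had 15.3%, 9.30% and 8.75%. Eif4a2, an RNA helicase of translation initiation, had 23.6%, 24.7% and 15.3%. Psmb6, a catalytic subunit of the proteasome, had 12.1%, 16.6% and 16.6%. Among all 67 genes the mean best score was below 100 in 26, with a median of 123, where the deposited scores of short-gene peaks ran from 50.01 to 3225.

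The 11 young-only genes that are not predicted were H2al1b, Pramel45, Spin2g, Spin2-ps1, Hspb7, Olfr1388, Plod3, Ifnk, Tgif2lx2, Foxr1 and Il17a. H2al1b, with a span of 490 bases, was covered over 100% in each young list with scores of 297, 194 and 56.9. Hspb7, a small heat shock protein of muscle, was covered over 31.6% in each young list. Ifnk, an interferon of keratinocytes, was covered over 29.9% in each young list, and Il17a, a cytokine of T cells, over 2.34%. In both the peak began at the annotated start, as the sequences above show. Plod3, a collagen-modifying enzyme, had 8.15%, 12.9% and 1.70%, and its region was in 2 young lists.

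Olfr1388 was covered over 17.7%, 100% and 87.8% in the young lists, and Tgif2lx2, a homeobox gene of the testis, over 100%, 85.1% and 71.1%. Several of these genes belong to families with similar copies, namely H2al1b, Pramel45, Spin2g, Spin2-ps1, Olfr1388 and Tgif2lx2, so their assignment is uncertain. Pramel45, Spin2g, Hspb7, Olfr1388 and Plod3 kept the call with lists of equal length, and the other 6 of the 11 were in 2 young lists. The mean best scores of the 20 young-only genes ran from 61.7 to 198, with a median of 102.3, and 9 were below 100.

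Among the 367 short genes in all 6 lists, the covered share was higher in every aged list than in every young list in 31 (8.45%), and lower in 19 (5.18%). Over genes of any length in all 6 lists the same counts gave 20.8% higher and 2.78% lower. At equal list length they were 15 higher and 22 lower of 296 short genes, so the order of the 2 directions turned. Only 14 of the 31 higher and 14 of the 19 lower genes kept their call there, so a gene named below may have lost it. The covered share was identical in all 6 lists in 61 short genes (16.6%), against 4.84% of longer genes. Over all host genes, longer genes had more peaks per gene and list, at 2.18 against 1.22. Identity was not compared between genes with the same number of peaks. Of the regions with 1 peak in each of the 6 lists, 44.95% had identical ends in all of them.

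Hap1, which encodes a huntingtin-associated protein of neurons, was covered over 1.85%, 4.68% and 6.53% in the young lists and 30.3%, 31.7% and 29.8% in the aged lists. Each aged list was far above each young one, and the number of peaks was 1, 1 and 2 against 3, 4 and 3. Pgrmc1, a haem-binding membrane protein, had 7.16%, 1.98% and 7.16% in the young and 18.4%, 18.4% and 23.2% in the aged lists. Ahsa1, an activator of the HSP90 ATPase, had 5.08%, 2.56% and 2.56% against 17.8%, 15.1% and 17.8%. Sod1, the cytosolic superoxide dismutase, had 3.21%, 3.89% and 4.38% against 15.8%, 9.67% and 21.2%, with 1 peak in each young list and 2, 3 and 4 in the aged ones. In Hap1 and Sod1 the larger share came with more peaks.

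Pnn, a nuclear speckle protein, had 34.1%, 47.5% and 34.9% in the young and 57.3%, 51.3% and 49.2% in the aged lists, a smaller gap between the ages. Prr23a2, a short gene of unclear function, had 55.2%, 49.9% and 47.0% against 84.8%, 61.7% and 83.9%.

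Lower cover in the aged lists was seen in Sox4, a transcription factor of developing neurons, with 41.4%, 58.3% and 43.3% in the young and 30.0%, 15.5% and 39.9% in the aged lists. Young list 1 and aged list 3 lay close together. Cox17, a copper chaperone for cytochrome c oxidase, had 20.9%, 28.9% and 24.3% against 11.6%, 9.95% and 11.9%, with 2 peaks in each young and 1 in each aged list. Fibp, a protein that binds fibroblast growth factor 1 inside cells, had 38.5%, 26.6% and 26.0% against 25.7%, 25.7% and 22.2%.

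Sprr2a1 and Sprr2a2, small proline-rich proteins of the skin barrier with nearly identical copies, also had lower values. Sprr2a2 had 29.0%, 39.5% and 45.4% in the young and 14.6%, 14.6% and 13.3% in the aged lists. Sprr2a1 had 30.0%, 40.1% and 24.2% against 14.6%, 13.3% and 13.3%. Pramel39 had 34.1%, 35.9% and 21.8% against 19.4%, 7.34% and 21.04%. Neurod1, a factor of excitatory neurons, also lay among the 19 genes, with 30.0%, 27.8% and 26.6% in the young and 25.1%, 20.6% and 23.8% in the aged lists.

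**Figure D5:**
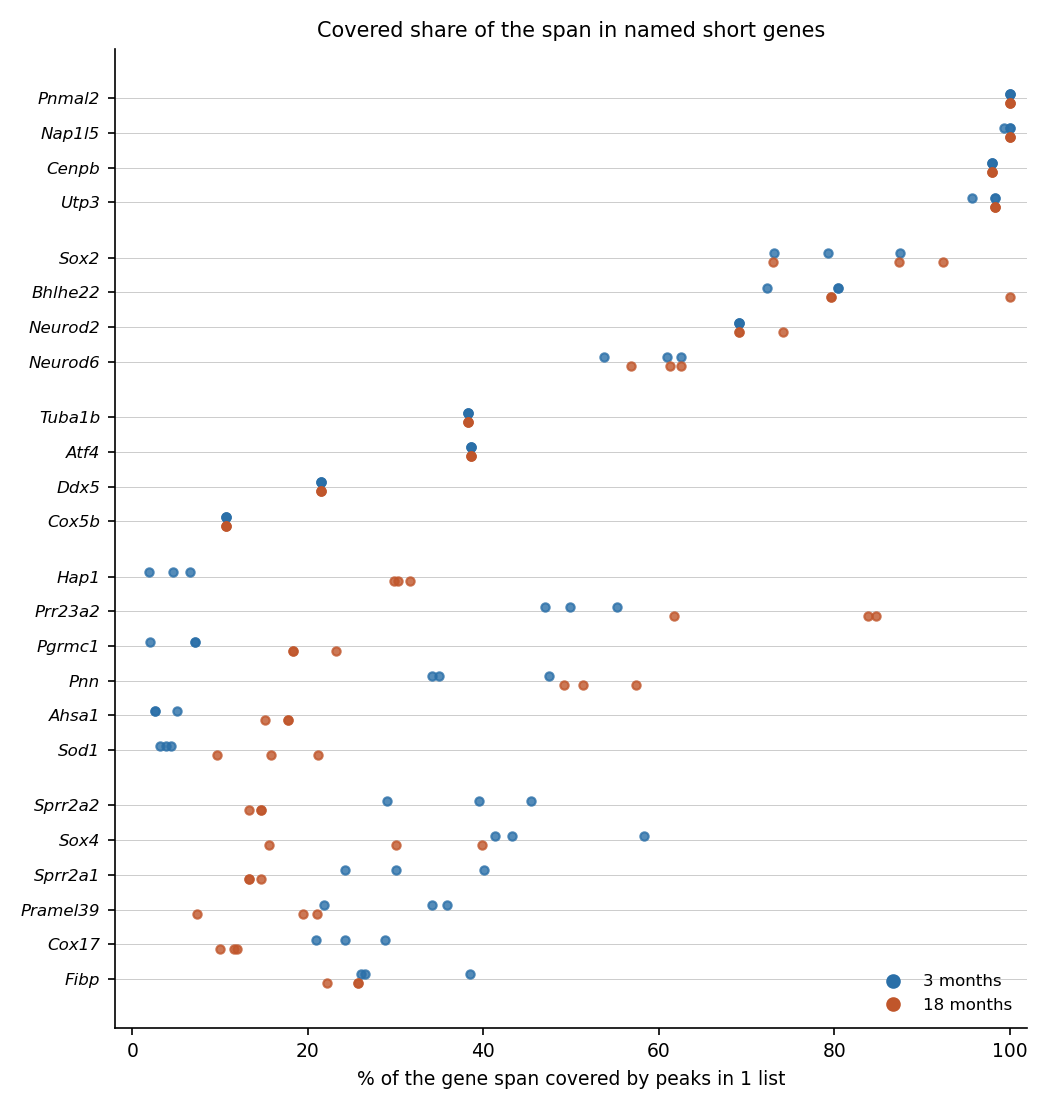
Percent of the gene span covered by peaks in each list for 24 short genes, young (3 months) and aged (18 months), 1 point per list. Pnmal2, Nap1l5, Cenpb and Utp3 lie at 95.6% or above in every list, and the aged points of Hap1 lie between 29.8% and 31.7% against 1.85% to 6.53% for the young.

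Just inside the limit of 10000 bases were Ssrp1, with a span of 9995 bases and peaks in all 6 lists, and 5430401F13Rik, with 9996 bases and 1 list of each age. Just outside were Casq1, with 10002 bases and 2 young lists, and AU022252, with 10004 bases and 1 list of each age. These 4 genes are named for their place at the limit.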

How the data were processed

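The 6 IP libraries (3 per age) each have a peak list, made sample by sample against the matching input. The input libraries have no list of their own. Per the submitters' processing notes, cutadapt 1.9.3, HISAT2 2.0.4 and mm10 were used. The deposited peak names carry the word MACS, while for the caller no version or settings are given in the sources used here. In each deposited list the score is a value the authors gave to each peak, saturated at about 3100. Scores served to rank and select peaks of the same list, and the naming rule also averages best scores over lists. No read counts were at hand, so depth and the precision of each peak are unknown.

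Protein-coding spans (GRCm38.p6, the mm10 build) took their strand from the RefSeq promoter table for 17492 genes, else from the majority of their peaks for 1831. A peak was assigned when it overlapped exactly 1 span by at least 1 base on the gene's strand; 70208 peaks were assigned and 2111 were not, of which 378 touched a short span. No exon annotation or genome was used here. Covered share is the union of a list's peaks inside the span, in percent. Regions are peaks that touch or overlap across lists.

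Ages were compared by two-sided exact permutation tests over lists, and short with longer genes by an exact sign-flip test over the 6 lists. Alternatives were lists of equal length (8549 peaks), scores from the list median upward, spans under 5000 bases, stricter assignment, predicted genes left out, each list left out and the replicate number as a block. Peak assignment was checked on simulated peaks with known answers, and the permutation test on fixed values with known p-values. Python 3.11.15, numpy 2.4.6, pandas 2.3.3 and matplotlib 3.10.9 were used.

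The class, the 23 gene lists (721 names) and the tests were chosen with earlier results of these data known, and the comparisons of families, of genes under 1000 bases, of cover of at least 95%, of start sequences and of gene lists and named genes at equal list length were added after the values were seen. Genes are named by rule, leaving out predicted genes (symbols Gm plus digits, or with the suffix Rik). These are up to 12 aged-only and up to 12 young-only genes, ranked by mean best score, the 12 most covered in all 6 lists, the 6 with the largest covered difference in each direction without overlap, from each list its aged-only and young-only members and up to 4 most covered in all 6 lists, and the 5 with the most peaks.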

Additional observations from a re-analysis of the deposited data

How the results depend on the processing

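Of 210 values recomputed under alternatives, 161 kept their direction or stayed within 1.5 times, 29 counts moved further and 20 values changed sign. Differences are aged minus young. With lists of equal length, peaks changed to -92.7, host genes to -90.0, the percent of annotated short genes with a peak to -1.13, the percent of host genes that are short to -0.513, width to 19.7 bases and relative position to 0.0451; aged-only genes numbered 23, young-only 49, and 15 genes were covered more in every aged list. With scores from the median upward, the percent of host genes that are short was -0.408, width 24.5, position 1.77 and the percent of peaks in the first 20% of the span -0.387; the counts were 35 aged-only, 11 young-only, 218 in all 6 lists, 14 covered more and 12 covered less. For spans under 5000 bases the percent of host genes that are short was -0.290, the covered share -2.17, width 12.8, position 0.438 and the percent in the last 20% of the span 0.477, with 21 aged-only, 13 young-only and 161 genes in all 6 lists, 6 covered more and 8 covered less, since fewer genes were counted. Without predicted genes 11 young-only genes were left. The difference in peaks per host gene (0.0621) kept its sign but was 0.0226 with lists of equal length, 0.0332 from the median upward and 0.0186 under 5000 bases. The counts of genes covered more or less were recomputed by a choice made after the data were examined. For the other changes the cause was not tested.

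Leaving out 1 list gave 80 to 121 aged-only genes (67 with all lists), 27 to 37 young-only (20), 43 to 56 covered more (31) and 28 to 36 covered less (19), since the rule then asks for fewer lists. Aged-only genes rose by over 1.5 times without young list 3 (112) or aged list 1 (121), 2 (111) or 3 (118), and young-only genes without young list 1 (37) or 3 (36) or aged list 1 (32). Genes covered more did so without young list 1 (56) or 3 (52) or aged list 1 (47) or 3 (48), and genes covered less without young list 1 (30), 2 (30) or 3 (34) or aged list 1 (36). Width ran from -18.2 to 21.8 bases, changing sign without young list 1 (21.8) or aged list 1 (6.17). Position ran from -1.13 to 0.179, changing sign without young list 1 (0.0406) or aged list 2 (0.179), and the percent in the last 20% from -0.864 to 0.0701, changing sign without young list 1.

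No pairing by replicate number was seen in the lists: the deviations of same-numbered lists correlated at 0.0152, -0.0202 and 0.0169 over genes. Those of differently numbered lists ran from -0.0417 to 0.0297. Such values cannot show whether samples were collected or processed in pairs. With the replicate number as a block (replicate block) the difference was 324 peaks and 220 host genes, with an exact sign-flip p of 0.25 for each, the smallest that 3 pairs allow. Read depth is unknown, so the difference in list length between ages cannot be told apart from depth.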
